A study of Mus musculus with 2 samples.

Results

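Lipid-associated macrophages are tumour and tissue macrophages that take up, store and export lipid, and 10 genes often used to recognise them were followed here: Apoe, Spp1, Trem2, Gpnmb, Lpl, Fabp5, Lgals3, Cd36, Plin2 and Abca1. The members were chosen by their symbols, and all 10 were found among the 12584 genes of the count matrix. Their products divide the work of lipid handling. TREM2 on the cell surface senses lipids and lipoproteins and signals through the adaptor TYROBP, CD36 takes up fatty acids and oxidised lipoproteins, and lipoprotein lipase (Lpl) releases fatty acids from triglycerides. FABP5 carries fatty acids inside the cell, PLIN2 coats lipid droplets, ABCA1 exports cholesterol, and apolipoprotein E (Apoe) receives it. Osteopontin (Spp1), galectin-3 (Lgals3) and the glycoprotein GPNMB are secreted or membrane proteins found in phagocytic macrophages.

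The cells were CD45+ leukocytes sorted live from subcutaneous tumours of YUMM3.3, a mouse melanoma line with Braf V600E and without Cdkn2a (Cdkn2a-/-). NTT tumours came from the line naive to targeted therapy, and RTT tumours from its derivative that had acquired resistance to a BRAF inhibitor and was kept in 100 nM dabrafenib in culture. Both were grown in C57BL/6 mice, which the study used at 6 to 12 weeks of age, and were taken 12 days after injection according to the record of the series, although a different day appears in the methods. Each group was 1 droplet library, sequenced from transcript 3′ ends and counted in molecules by unique molecular identifiers (UMIs). The number of tumours behind each library was not established.

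There were 2975 NTT cells with 19634099 UMIs in sum and 4840 RTT cells with 44712071. No replicate was made, so no difference could be set against a spread between tumours, no test was run, and effects of the line, the host, the sort and the library cannot be told apart. Intervals in brackets are exact 95% intervals that cover counting error only. Population names are those that the authors gave. They were merged here into macrophages (TAM_C1q, TAM_Spp1, TAM_cycling, TAM_H2Ab1, Macro and Ctsk_Macro), monocytes (Monocyte_1, Infl_Mono and Monocyte_3) and dendritic cells (cDC1, cDC2 and DC3). Macrophages were 19.6% of NTT and 82.8% of RTT cells. The 8 macrophage markers summed to 24639 CPM (UMIs per 1000000 UMIs of the same cells) in NTT and 28841 CPM in RTT macrophages. In the same cells 5 monocyte markers summed to 2466 CPM in NTT and 794 CPM in RTT, and 6 osteoclast-like markers to 1007 and 5236 CPM. Their part in the differences below was not tested. The 8 macrophage markers also reached 12583 CPM in NTT and 18786 CPM in RTT monocytes, so the monocyte name did not mark cells without macrophage genes. Of 1615 NTT cells named monocytes, 741 stayed under 1000 CPM of the C1q genes, complement genes used below to redefine these classes. Of cells named macrophages, 423 of 582 in NTT and 3503 of 4009 in RTT reached that level. Of 9 melanoma markers listed, only 3 were in the matrix. These 3 were near absent, at 0.92 CPM in the NTT and 0.83 CPM in the RTT library. The others could not be read, so the presence of tumour cells was not settled. The libraries shared 7 barcodes, and 2 of these pairs carried the same population name.

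Promoters are shown for 4 members, because 3 of them (Apoe, Spp1 and Trem2) had higher summed levels in RTT macrophages and monocytes and the fourth, Abca1, acts with Apoe in cholesterol export but did not share that pattern. Windows of 250 bases before the 5′-most start site were read from the RefSeq promoter table (GRCm38.p6), which matched 8 of the 10 members. The table has no entry for Lpl and Fabp5. Capitals mark matches, on either strand, to TGANTCA (a loose AP-1 pattern), CACGTG (an E-box read by MiT/TFE factors of the lysosome programme) or GAGGAAGT (read by the macrophage factor PU.1). Direct repeats of AGGTCA spaced by 1 base or by 4 bases, which PPAR and liver X receptors read, were searched in the same way. The AP-1 pattern allowed any middle base, where the AP-1 consensus has C or G. The Apoe window lies at chr7:19699189-19699438 on the minus strand, that of Spp1 at chr5:104434861-104435110 on the plus strand, that of Trem2 at chr17:48346151-48346400 on the plus strand, and that of Abca1 at chr4:53159896-53160145 on the minus strand.
Apoe: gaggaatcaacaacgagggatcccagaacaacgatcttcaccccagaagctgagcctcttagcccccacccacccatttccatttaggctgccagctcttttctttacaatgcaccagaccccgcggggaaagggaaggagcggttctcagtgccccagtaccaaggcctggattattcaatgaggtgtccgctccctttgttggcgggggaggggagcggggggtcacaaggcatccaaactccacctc
Spp1: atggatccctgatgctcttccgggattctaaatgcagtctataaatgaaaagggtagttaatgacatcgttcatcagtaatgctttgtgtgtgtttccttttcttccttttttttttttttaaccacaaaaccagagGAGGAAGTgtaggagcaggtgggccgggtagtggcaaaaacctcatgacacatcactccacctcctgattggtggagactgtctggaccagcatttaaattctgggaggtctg
Trem2: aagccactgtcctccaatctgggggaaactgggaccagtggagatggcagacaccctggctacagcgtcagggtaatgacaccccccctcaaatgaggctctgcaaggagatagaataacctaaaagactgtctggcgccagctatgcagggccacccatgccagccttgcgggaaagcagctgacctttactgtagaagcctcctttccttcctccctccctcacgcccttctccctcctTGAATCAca
Abca1: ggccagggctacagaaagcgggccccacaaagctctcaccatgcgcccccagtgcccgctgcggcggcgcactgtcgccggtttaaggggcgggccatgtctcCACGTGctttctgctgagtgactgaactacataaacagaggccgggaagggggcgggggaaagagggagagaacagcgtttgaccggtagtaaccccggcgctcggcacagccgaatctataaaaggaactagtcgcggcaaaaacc
The PU.1 letters stood 113 to 106 bases before the Spp1 start site, the AP-1 letters 9 to 3 bases before that of Trem2, and the E-box 147 to 142 bases before that of Abca1. The Trem2 match had A as its middle base, so it met the loose pattern and not the AP-1 consensus. Among all 32851 windows of this length, 2.44% held the PU.1 letters, 6.75% the AP-1 letters and 6.02% the E-box. The exact repeat spaced by 1 base was in 11 windows and that spaced by 4 bases in 5, and in none of the members' windows (0.0335% and 0.0152% of all windows). Imperfect repeats were not searched, so the absence of a match does not show that a window lacks a site for these receptors. No motif searched was shared by any pair of the 4 windows. These matches are descriptions of the sequence, and no binding was measured.

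Over all cells, the 10 genes split rather than moving as a block. At a 2-fold difference, 4 genes were higher in RTT (Apoe, Spp1, Trem2 and Lpl), 2 were lower (Gpnmb and Cd36) and 4 lay within 2-fold (Fabp5, Lgals3, Plin2 and Abca1). Of 10845 genes whose UMIs reached 50 in sum, 9.76% were at least 2-fold higher and 12.7% at least 2-fold lower. The median log2 ratio was 0.30 over the 10 genes and 0.07 over all genes. The 2 genes that were lower had few molecules, with 52 and 57 Gpnmb UMIs and 97 and 61 Cd36 UMIs in NTT and RTT.

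**Figure D1:**
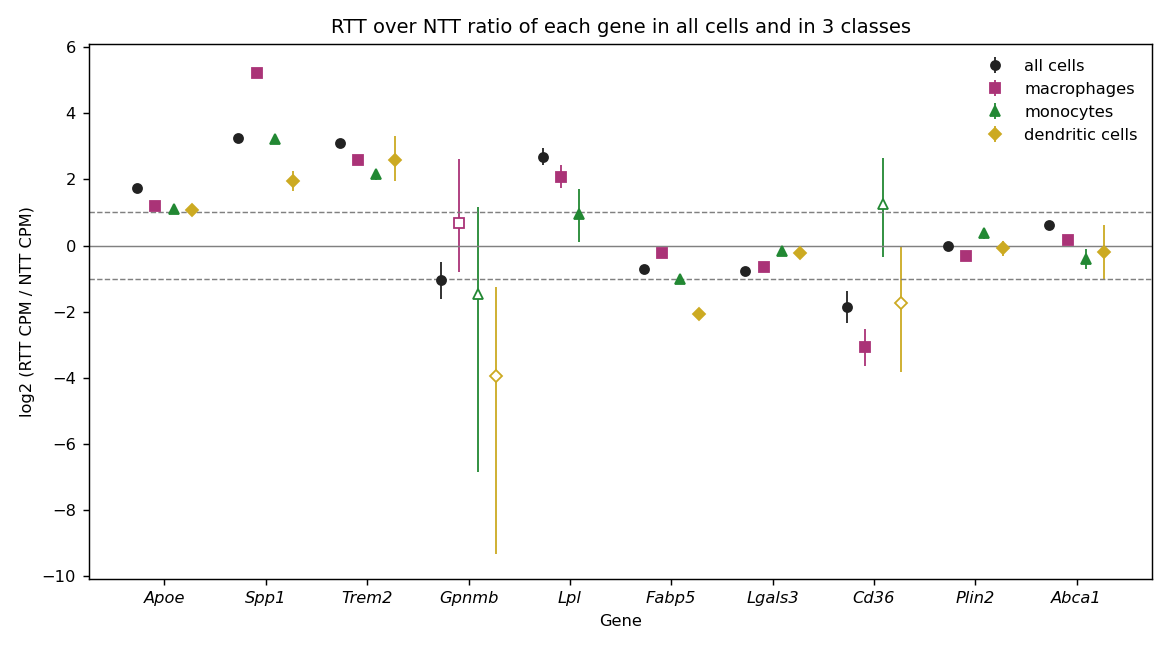
Log2 ratio of RTT over NTT CPM of each gene in all cells, macrophages, monocytes and dendritic cells, with exact 95% counting intervals; dashed lines mark a 2-fold difference, open symbols stand for fewer than 50 UMIs over both libraries, and the Lpl ratio in dendritic cells (0 NTT UMIs) is not drawn. Apoe, Spp1 and Trem2 lie above the upper line in every class, from 1.07 to 5.23, although their RTT levels in the dendritic class were below those of NK_cells, whereas Plin2 and Abca1 stay between the lines.

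Within macrophages the same 4 genes were at least 2-fold higher in RTT and Cd36 was lower. Gpnmb, with 46 UMIs, did not reach the minimum of 50 UMIs, which 9 members passed. The background shares were 6.2% higher and 7.57% lower of 10127 genes. In monocytes 4 members were past 2-fold upwards and 2 downwards. Of the 8 members with enough UMIs, Apoe, Spp1 and Trem2 were higher and Fabp5 was lower, beside 4.89% and 8.5% of 8140 genes. In dendritic cells 4 members were past 2-fold upwards and 3 downwards. Of the 7 members with enough UMIs, 3 were higher (Apoe, Spp1 and Trem2) and Fabp5 was lower, beside 7.54% and 8.36% of 7873 genes. The RTT levels of these 3 genes in the dendritic class (391, 139 and 42.4 CPM) lay below those of NK_cells in the same library (713, 260 and 75.9 CPM), so their ratios there are not read as a difference in expression. Apoe, Spp1 and Trem2 were thus past 2-fold in macrophages and in monocytes, while Plin2 and Abca1 were past it in none of the 3 classes. The Apoe value was the least firm outside macrophages. Its log2 ratio of 1.12 in monocytes was 0.75 with the mean of per-cell CPM or with thinned cells and 0.35 with classes redefined by C1q, and its 1.07 in dendritic cells was 0.65 without cells carrying C1q.

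Apoe, the apolipoprotein that accepts exported cholesterol, is encoded on the minus strand at chr7:19696109-19699188 (GRCm38, as are all gene positions given here). Its level in macrophages was 5697 CPM in NTT and 13095 CPM in RTT, a log2 ratio of 1.20 (1.18 to 1.22). In monocytes it was 3995 CPM in NTT and 8665 CPM in RTT. Among populations of at least 50 cells the level was highest in RTT TAM_C1q cells at 17993 CPM, followed by RTT Infl_Mono cells at 12389 CPM and RTT TAM_cycling cells at 11437 CPM. The lowest RTT level was that of cDC2 (304 CPM), which overlapped that of cDC1 (307 CPM), and the lowest NTT level was that of NK_cells (140 CPM). The level in Monocyte_1 cells was the same in both libraries within counting error, 4653 CPM in NTT and 4700 CPM in RTT, while Infl_Mono cells differed (2865 CPM in NTT and 12389 CPM in RTT). At 2000 UMIs per cell, 82.1% of NTT and 94.4% of RTT macrophages held an Apoe UMI.

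Spp1 (chr5:104435118-104441050, plus strand), which encodes the secreted phosphoprotein osteopontin, showed the largest ratio in macrophages of the 10 genes. The macrophage level was 80.3 CPM in NTT and 3018 CPM in RTT, a log2 ratio of 5.23 (5.10 to 5.36). With classes redefined by C1q it was 4.49. Thinned to 2000 UMIs, 9.72% of 576 NTT macrophages and 61.9% of 3983 RTT macrophages held a UMI. The population named TAM_Spp1 reached 3982 CPM in RTT and TAM_C1q reached 3977 CPM, a pair that did not differ beyond counting error. NTT cells named TAM_Spp1 held 167 CPM, less than NTT Monocyte_1 cells at 269 CPM. In the NTT library the name TAM_Spp1 therefore did not mark the myeloid cells with the most Spp1; NTT Neutro cells, at 876 CPM, exceeded both.

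The cells with the highest Spp1 level were not macrophages. The 14 NTT and 24 RTT cells named Myofibrobl held 29521 and 51643 CPM. Their 6 fibroblast markers summed to 6932 CPM with 2 of the 6 at 0 in NTT and to 3929 CPM with 1 of the 6 at 0 in RTT, and the 3 melanoma markers were at 0 in both. These few cells carried 56.5% of all Spp1 UMIs in NTT and 12.9% in RTT, and the 3 richest NTT cells held at least 50% of the NTT molecules. The richest, a Myofibrobl cell, had 1526 of 6526 UMIs. Without the Myofibrobl cells the log2 ratio over all cells was 4.25 in place of 3.24.

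**Figure D2:**
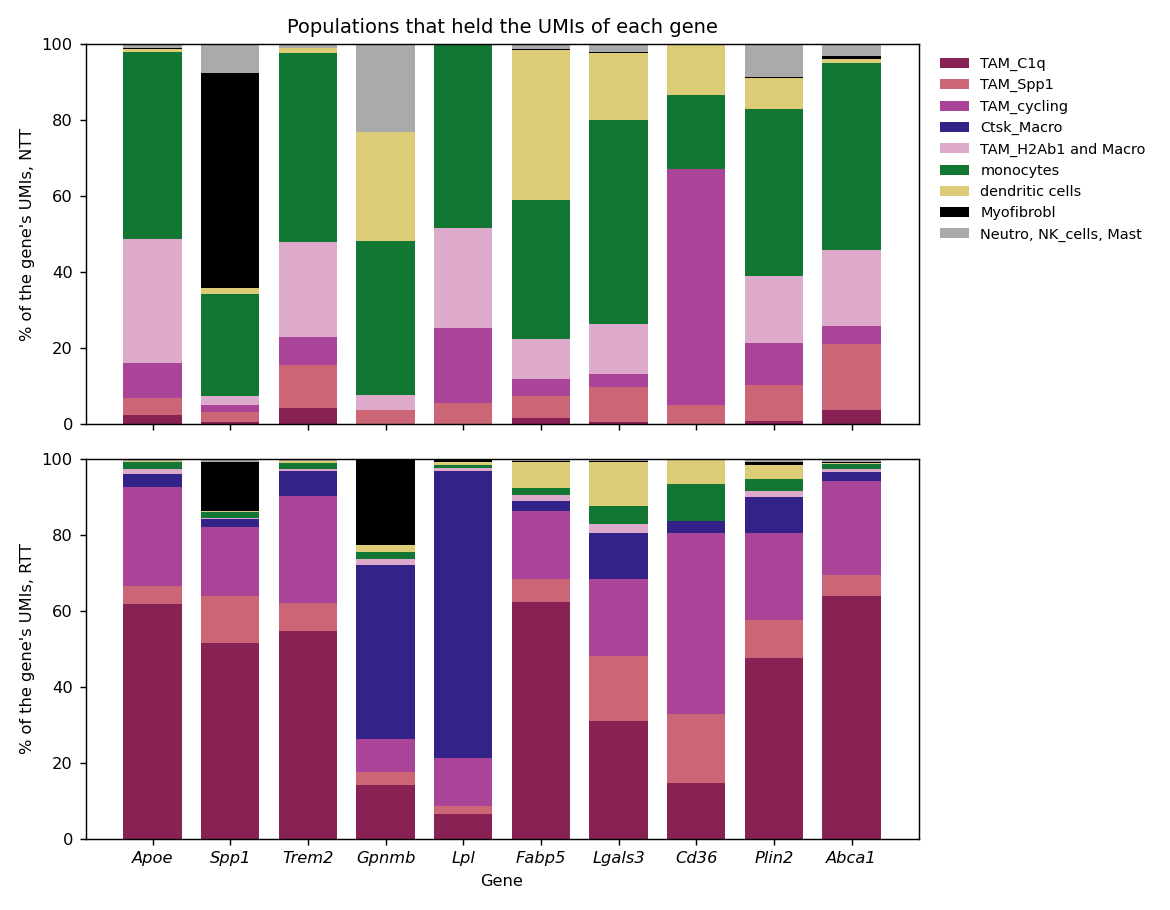
Share of each gene's UMIs (percent) held by each population or class in the NTT library (top) and the RTT library (bottom). In NTT, Myofibrobl cells held 56.5% of Spp1 and dendritic cells 39.5% of Fabp5; in RTT, TAM_C1q cells held 61.8% of Apoe and Ctsk_Macro cells 75.5% of Lpl.

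Trem2 (chr17:48346401-48354147, plus strand), the lipid-sensing receptor, differed in the same direction. Its macrophage level was 136 CPM in NTT and 817 CPM in RTT, a log2 ratio of 2.59 (2.48 to 2.69), and 24.7% of NTT and 72.9% of RTT macrophages held a UMI at 2000 UMIs per cell. The order of levels ran from RTT TAM_C1q (991 CPM) and RTT TAM_cycling (769 CPM) to RTT TAM_Spp1 (544 CPM), Infl_Mono (538 CPM) and Ctsk_Macro (519 CPM). TAM_Spp1 and Infl_Mono had overlapping intervals, as had Infl_Mono and Ctsk_Macro. In NTT the highest level among populations of at least 50 cells was that of Macro (351 CPM), and the 17 NTT TAM_C1q cells held 539 CPM. The 5 populations that had enough cells (50 per library) and Trem2 UMIs (50 in sum) to compare were TAM_Spp1, TAM_cycling, Infl_Mono, Monocyte_1 and cDC2. All had log2 ratios past 2-fold, from 1.57 to 3.53, but the RTT level in cDC2 was 34.0 CPM. NK_cells, which should lack the gene, held 3.77 CPM in NTT and 75.9 CPM in RTT, which exceeds the cDC2 level.

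The scavenger receptor Cd36 (chr5:17781690-17888801, minus strand) was close to absent. Macrophages held 65 NTT and 51 RTT UMIs in all, 10.9 and 1.3 CPM. A single NTT TAM_cycling cell held 60 of the 65 molecules. Without the top cell of each library the log2 ratio in macrophages was 0.44 in place of -3.07, so the lower RTT value rested on that cell. Cd36 was at 0 UMIs in cDC2, Neutro and NK_cells of both libraries.

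Gpnmb (chr6:49036546-49070929, plus strand) was also scarce. It summed to 2.65 CPM in NTT and 1.27 CPM in RTT over all cells, and 4 NTT and 42 RTT macrophage UMIs were counted. Of the 57 RTT molecules, 45.6% lay in Ctsk_Macro cells and 22.8% in Myofibrobl cells. The highest level in NTT was that of Neutro cells, at 22.1 CPM on 10 UMIs. At 2000 UMIs per cell, 0.347% of NTT and 0.201% of RTT macrophages held a UMI. A difference between the macrophages of the libraries was not detectable, with a log2 ratio of 0.67 (-0.79 to 2.61) over all UMIs and of -0.79 with thinned cells.

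Lgals3 (chr14:47367751-47386160, plus strand), a galectin that binds damaged membranes and glycoproteins, was abundant in every myeloid population. Macrophages held 2104 CPM in NTT and 1346 CPM in RTT, a log2 ratio of -0.64 (-0.67 to -0.62). The highest level was in NTT cDC1 (5005 CPM), ahead of NTT TAM_Spp1 (4186 CPM). RTT Monocyte_1 (3314 CPM) and RTT cDC1 (3271 CPM) did not differ beyond counting error. No population with at least 50 cells in both libraries differed by 2-fold, and log2 ratios ran from -0.73 to 0.66.

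Lpl (chr8:68880491-68907448, plus strand) was concentrated in Ctsk_Macro cells of the RTT library. These cells, whose 6 osteoclast-like markers summed to 49238 CPM and whose 8 macrophage markers summed to 4054 CPM, held 402 CPM of Lpl, and the next population of at least 50 cells, RTT DC3, held 31.8 CPM. Of 2165 RTT molecules, 75.5% lay in the 280 Ctsk_Macro cells. The NTT library had no cell of that name and held 147 Lpl molecules over all its cells. The macrophage level was 12.7 CPM in NTT and 53.7 CPM in RTT, a log2 ratio of 2.07. In TAM_cycling cells Lpl was 15.3 CPM in NTT and 22.5 CPM in RTT, with a log2 ratio of 0.56. Of the 2113 Lpl molecules in RTT macrophages, 1634 thus lay in a population that the NTT library did not contain.

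Fabp5 (chr3:10012548-10016607, plus strand), the fatty acid carrier, was highest in DC3, 1 of the 3 dendritic populations. DC3 cells held 14884 CPM in NTT and 7219 CPM in RTT, and 91.4% and 92.3% of them had a UMI at 2000 UMIs per cell. The next population of at least 50 cells, NTT TAM_Spp1, held 2010 CPM. Dendritic cells as a class held 4457 CPM in NTT and 1060 CPM in RTT, a log2 ratio of -2.07 (-2.13 to -2.02), and cDC2 held 1324 and 544 CPM. cDC1 cells had the lowest level of all populations ranked, 55.1 CPM in NTT and 38.7 CPM in RTT. DC3 accounted for 135 of the 492 NTT dendritic cells but 57 of the 526 in RTT. In macrophages Fabp5 was 1326 CPM in NTT and 1134 CPM in RTT, a log2 ratio of -0.23. TAM_Spp1 and Monocyte_1 cells were 2.95-fold and 2.85-fold lower in RTT.

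Plin2 (chr4:86648386-86670060, minus strand) and Abca1 (chr4:53030787-53159895, minus strand), the droplet coat and the cholesterol exporter, lay within 2-fold in macrophages. Plin2 was 269 CPM in NTT and 215 CPM in RTT macrophages, a log2 ratio of -0.32 (-0.40 to -0.24), and its highest level was in NTT Neutro cells at 653 CPM. None of the 8 populations compared differed by 2-fold in Plin2. Abca1 was 172 CPM in NTT and 193 CPM in RTT macrophages, a log2 ratio of 0.17 (0.08 to 0.27). Its direction turned with the mean of per-cell CPM (-0.24) and with thinned cells (-0.23), so no direction is given for Abca1 in macrophages. Within populations Abca1 differed in opposite directions. Abca1 was 375 CPM in NTT and 98.9 CPM in RTT TAM_Spp1 cells, but 54.8 CPM in NTT and 159 CPM in RTT TAM_cycling cells.

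**Figure D3:**
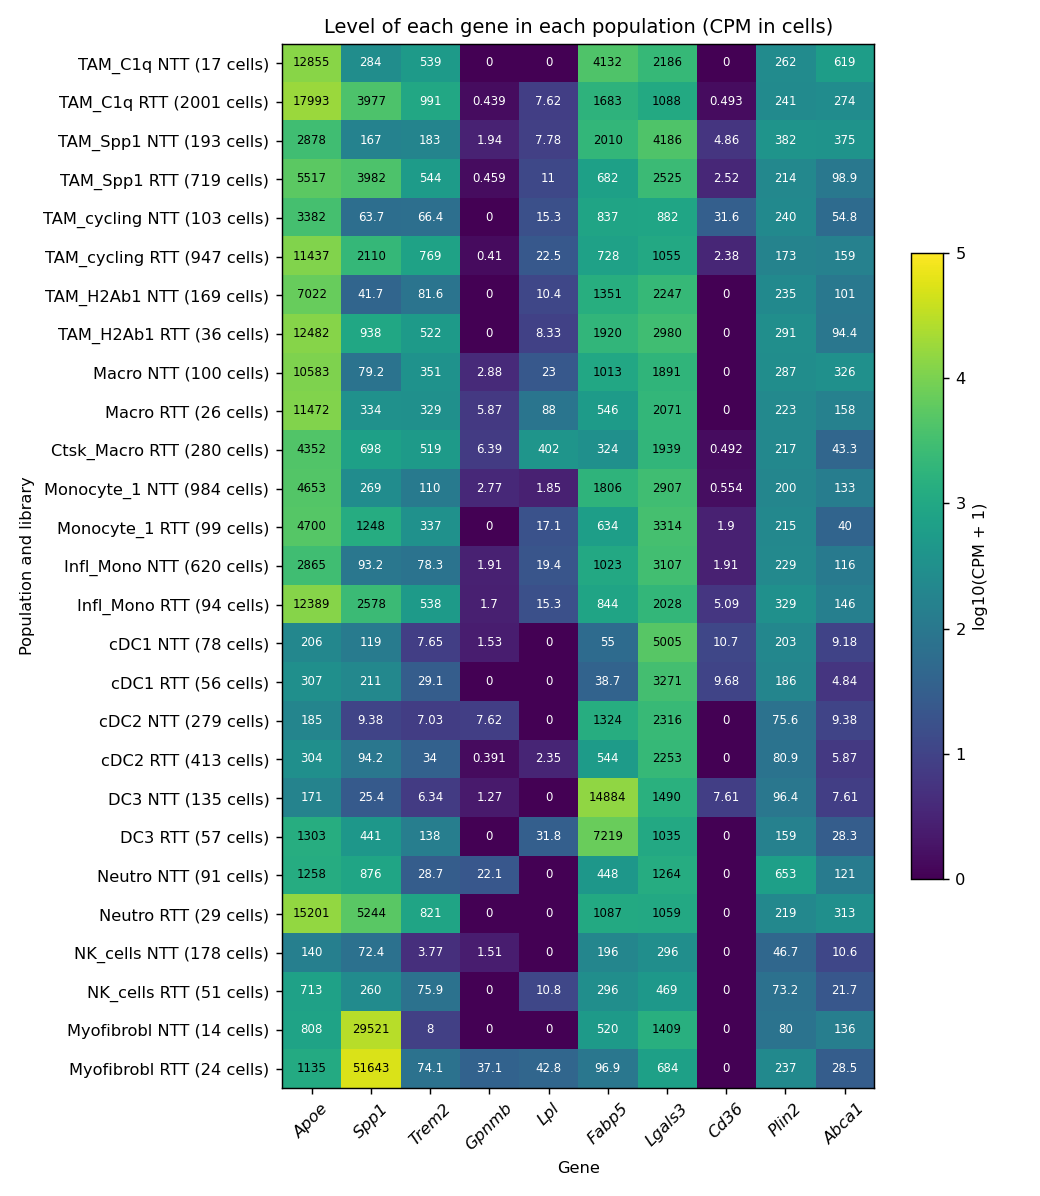
Level of each gene in CPM (number in each cell of the grid, colour as log10 of CPM + 1) in 14 populations, by library, with the number of cells. Apoe and Trem2 are highest in TAM_C1q RTT (17993 and 991 CPM), while Spp1 peaks in Myofibrobl, Fabp5 in DC3, Lpl in Ctsk_Macro and Plin2 in NTT Neutro; Gpnmb reaches at most 37.1 CPM and Cd36 at most 31.6 CPM in the rows shown.

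The populations present in both libraries repeated the split between the genes. In TAM_Spp1 cells, Spp1 was 167 CPM in NTT and 3982 CPM in RTT, and Trem2 was 183 and 544 CPM. Both were at least 2-fold higher, while Fabp5 and Abca1 were at least 2-fold lower, so 2 of 8 members with enough UMIs lay past 2-fold in each direction. The background in TAM_Spp1 was 14.8% higher and 13.6% lower, so the members' counts there were read against many genes past 2-fold. Its 8 macrophage markers summed to 7850 CPM in NTT and 18235 CPM in RTT and its 5 monocyte markers to 7539 and 2519 CPM. The part of these marker differences in the member differences was not tested.

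In TAM_cycling cells, 4 of 9 members were at least 2-fold higher (Apoe, Spp1, Trem2 and Abca1), beside 6.4% of all genes, and only Cd36 was lower, beside 5.41%. Macrophage markers in TAM_cycling summed to 27344 CPM in NTT and 28399 CPM in RTT, whereas osteoclast-like markers summed to 1317 and 139 CPM, neutrophil markers to 193 and 25.5 CPM and dendritic markers to 81.7 and 15.02 CPM. Of the 6 osteoclast-like markers, 4 were at 0 in NTT and 0 were at 0 in RTT, so the NTT sum rested on few genes. The part of all these markers in the member differences was not tested. Spp1 there was 63.7 CPM in NTT and 2110 CPM in RTT (2109.8), and Apoe was 3382 and 11437 CPM. In Infl_Mono cells 3 of 8 members were higher (Apoe, Spp1 and Trem2) and none was lower, beside 8.08% and 9.96% of all genes. Infl_Mono macrophage markers were 7088 CPM in NTT and 23810 CPM in RTT (23810.4). The monocyte markers of Infl_Mono cells were 14260 CPM in NTT and 4824 CPM in RTT, so the name covered unlike cells. What these marker differences gave to the Infl_Mono ratios was not tested. In Monocyte_1 cells Spp1 and Trem2 were higher, and Fabp5 and Abca1 were lower, 2 of 7 members each way, beside 3.93% and 13.4% of all genes. In the 4 macrophage and monocyte populations that could be compared, Spp1 and Trem2 were thus at least 2-fold higher in all 4, and Apoe in 2 (TAM_cycling and Infl_Mono).

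The levels of Apoe and Spp1 in NK_cells were also higher in RTT. NK_cells, whose 8 lymphocyte markers summed to 9569 CPM in NTT and 7087 CPM in RTT, held 72.4 and 260 CPM of Spp1 (260.4 in RTT) and 140 and 713 CPM of Apoe (140.2 in NTT). At 2000 UMIs per cell, 4.27% of 164 NTT and 24.4% of 41 RTT NK_cells held a Spp1 UMI, with median depths of 5359 and 3967 UMIs before thinning, against 8229 and 9021 UMIs in macrophages. Macrophage markers in NK_cells summed to 257 CPM in NTT and 3057 CPM in RTT. With the NK_cells level of each library subtracted, an alternative chosen after seeing the data, the log2 ratio in macrophages was 1.16 for Apoe, 2.49 for Trem2 and 8.43 for Spp1. NTT macrophages held 80.3 CPM of Spp1, little above the 72.4 CPM of NTT NK_cells, so the subtracted ratio has no firm size. Spp1 in NTT dendritic populations ran from 9.38 CPM in cDC2 to 119 CPM in cDC1, so NK_cells gave no common background level. Among RTT dendritic cells, cDC1 and cDC2 lay below the NK_cells level of Apoe, Spp1 and Trem2, although the cDC1 intervals of Spp1 and Trem2 overlapped those of NK_cells. Macrophage markers summed to 826 CPM in RTT cDC1 and 1600 CPM in RTT cDC2, less than in RTT NK_cells. The NK_cells level therefore cannot show whether cDC1 and cDC2 expressed these genes, and their levels are not read as expression. DC3 cells lay above the NK_cells level, with 1303 CPM of Apoe, 441 CPM of Spp1 and 138 CPM of Trem2. The 8 macrophage markers in DC3 cells summed to 811 CPM in NTT and 4111 CPM in RTT. The part of these markers in the DC3 values was not tested. Fabp5 in dendritic cells (4457 CPM in NTT and 1060 CPM in RTT) lay above the 196 and 296 CPM of NK_cells.

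TAM_C1q cells were 0.571% of NTT and 41.3% of RTT cells, and in bulk sums more cells of a type and more RNA per cell cannot be told apart. Therefore the difference over all cells was divided into a part from these shares of UMIs and a part within populations. For Apoe, 8316 CPM separated the libraries, and 49.7% of it came from population shares (42.2% and 57.2% with the levels of NTT or of RTT as weights). For Trem2 the share was 43.5% of 653 CPM. For Spp1 it was 25.9% of 2816 CPM, but 4.40% with NTT and 47.4% with RTT weights. For Lpl it was 81.0% of 40.9 CPM, and Ctsk_Macro cells were found only in RTT. A population missing from a library was given the level of the other library. The whole Ctsk_Macro part of each gene was thus counted as shares by this rule and was not a measured split. For Abca1 the part from population shares was 147 CPM and the part within populations was -85.1 CPM. For Fabp5 these parts were 307 CPM and -1011 CPM. For both genes the parts thus had opposite signs, positive from the shares and negative within populations.

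Taken as a class, RTT macrophages held more of the 10 genes together in single cells. At 2000 UMIs per cell, 17.4% of NTT macrophages (100 of 576, 14.4% to 20.7%) and 43.1% of RTT macrophages (1716 of 3983, 41.5% to 44.6%) held a UMI of at least 5 members. Of the cells, 6 NTT and 26 RTT macrophages were too shallow and were left out. Without thinning the shares were 60.5% and 87.6%, at median depths of 8229 and 9021 UMIs per cell. Among RTT macrophage populations of at least 50 cells the share was highest in TAM_C1q (52.9%), then TAM_cycling (36.6%) and Ctsk_Macro (35.6%). In TAM_cycling it was 4.85% in NTT, and in TAM_Spp1 it was 23.0% in NTT and 28.3% in RTT, with overlapping intervals. Of NTT TAM_C1q cells, 8 of 16 passed (50%, 24.7% to 75.3%). In smaller RTT populations it was 25.8% in NTT and 19.2% in RTT for Macro (26 RTT cells), and 10.7% and 29.4% for TAM_H2Ab1 (34 RTT cells). These populations differed in share between the libraries, and the part of those shares in the class difference was not tested. Among NK_cells, none of 164 passed in NTT (a floor of 3 counts is 1.83%, and the exact upper limit is 2.22%), and 1 of 41 passed in RTT. Of the single genes, Spp1 and Trem2 were found in under 50% of thinned NTT macrophages and in over 50% of thinned RTT macrophages, and no other member was. No thinned macrophage of either library held all 10.

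**Figure D4:**
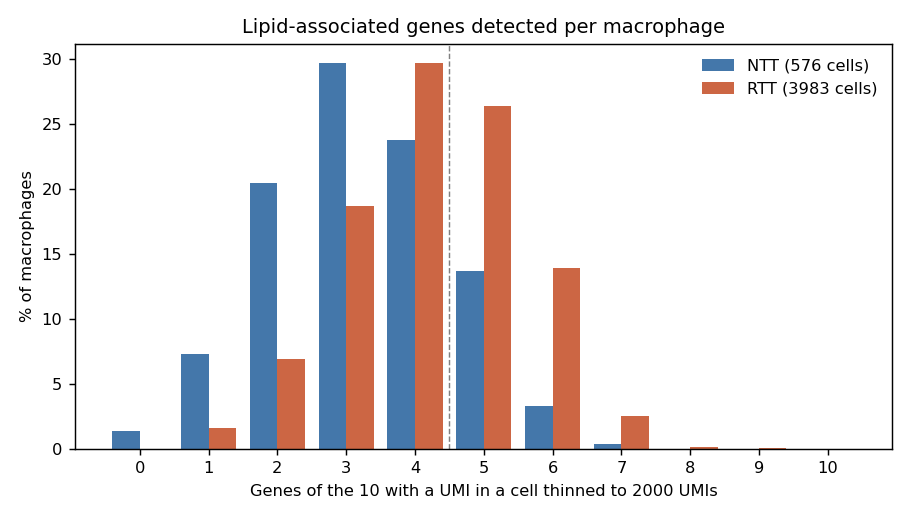
Percent of NTT (576) and RTT (3983) macrophages by the number of the 10 genes with a UMI after each cell was thinned to 2000 UMIs; the dashed line divides 4 from 5 genes. The NTT bars peak at 3 genes (29.7%) and the RTT bars at 4 genes (29.7%), and 43.1% of RTT cells lie right of the line against 17.4% of NTT cells.

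Across thinned cells the members were only weakly tied to each other. In RTT macrophages the highest Spearman correlations joined Apoe with Fabp5 (0.29), Trem2 (0.27), Spp1 (0.25) and Abca1 (0.23), and the lowest joined Apoe with Lgals3 (-0.29) and Lpl (-0.18). The median over the 45 pairs was 0.02 in 3983 cells. In NTT macrophages Apoe with Trem2 (0.26) and Apoe with Fabp5 (0.21) led in 576 cells. Within RTT TAM_C1q cells alone, no pair exceeded 0.17, and Spp1 and Abca1 gave -0.06. These values share 1 library and sparse counts and are given as descriptions.

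Over the 21 combinations of population and library with at least 50 cells, the profiles of Apoe and Trem2 were alike (Pearson r = 0.91), as were Apoe and Abca1 (r = 0.86) and Spp1 and Trem2 (r = 0.77). Apoe and Fabp5 gave 0.24, and Apoe and Lgals3 0.11. Among 8220 genes with at least 500 UMIs, Tmem37 (0.96) and Adgre1 (0.95), which encodes F4/80, were closest to Apoe, Pdpn (0.84) and Tmem119 (0.78) to Spp1, and Stab1 (0.92) and Tmem37 (0.91) to Trem2. Slc7a8 (0.95) and C5ar1 (0.93) were closest to Abca1, Fam49a (0.87) and Rap2b (0.85) to Fabp5, and Nfe2l2 (0.82) and Slc27a4 (0.82) to Plin2. Ifitm2 (0.85) and BC028528 (0.85) were closest to Lgals3, and Ap5s1 (0.87) and Ppargc1b (0.87) to Lpl. For the scarce genes the nearest profiles were Osgin1 (0.84) and Retnlg (0.83) for Gpnmb, and Inip (0.63) and Commd8 (0.59) for Cd36. The mean of the 10 standardised profiles was closest to Hacd4 (0.90), Apoc2 (0.87), Sqor (0.87), C5ar1 (0.87), Msr1 (0.85), Cstb (0.85), Tmem37 (0.85) and Ecm1 (0.84). The points share libraries and depth, and no test was made.

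Other genes of lipid-associated macrophages were mixed as well. Of 22 genes in that list, 21 were in the matrix and 20 had at least 50 UMIs in macrophages, of which 4 were at least 2-fold higher in RTT and 5 lower, with a median log2 ratio of 0.29 (0.05 over all 10127 genes). The counts of this and the following lists stand beside the macrophage background of 6.2% higher and 7.57% lower. All lists were read over macrophages as a class, whose populations differed in share between the libraries. The part of those shares in the list ratios was not tested. Syngr1, a synaptogyrin, was 9.56 CPM in NTT and 96.2 CPM in RTT, and Cst7, a cysteine protease inhibitor, 5.53 and 35.3 CPM. Itgax, the integrin CD11c, was 373 CPM in NTT and 82.2 CPM in RTT, and Lgals3bp, which binds galectin-3, 425 and 165 CPM.

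Genes of lipid export and storage that passed 2-fold were all lower in RTT macrophages. Of 15 measured genes of cholesterol efflux and liver X receptor targets, 0 were at least 2-fold higher and 5 were lower, with a median of -0.52. Abcg1, the partner exporter of ABCA1, was 226 CPM in NTT and 43.4 CPM in RTT, and Nr1h3, the liver X receptor alpha, 64.2 and 19.7 CPM. Of 19 genes of fatty acid handling and lipid droplets, 0 were higher and 5 lower, with a median of -0.62. Pparg, the fatty acid-sensing nuclear receptor, was 54.7 CPM in NTT and 8.86 CPM in RTT, and G0s2, an inhibitor of droplet lipolysis, 25.2 and 6.7 CPM. Apoe is a liver X receptor target too, yet was higher.

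Among lipid and lipoprotein uptake receptors, Stab1, a scavenger receptor, was 81.5 CPM in NTT and 484 CPM in RTT, while Sorl1, a sorting receptor, was 103 and 35.5 CPM. The machinery downstream of TREM2 was not higher along with the receptor. Of 12 genes, 0 were at least 2-fold higher and 2 were lower (Malt1, 77.1 and 30.9 CPM; Syk, the kinase recruited by TYROBP, 169 and 76.6 CPM), with a median of -0.42. Tyrobp was 3566 CPM in NTT and 4203 CPM in RTT.

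Of 8 osteopontin receptor genes, Itgb3 was higher (1.34 and 5.79 CPM), Itga9 (147 and 49.3 CPM) and Cd44 (423 and 159 CPM) were lower, and 5 lay within 2-fold. Of 9 genes in the list of MiT/TFE factors and regulators, only Tfrc passed 2-fold (18.1 and 36.5 CPM). Tfrc encodes the transferrin receptor and is not itself such a factor. Mitf, a MiT/TFE factor, was 17.6 CPM in NTT and 33.6 CPM in RTT. The medians of the 7 lists ran from -0.62 to 0.29, so none reached 2-fold in either direction.

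**Figure D5:**
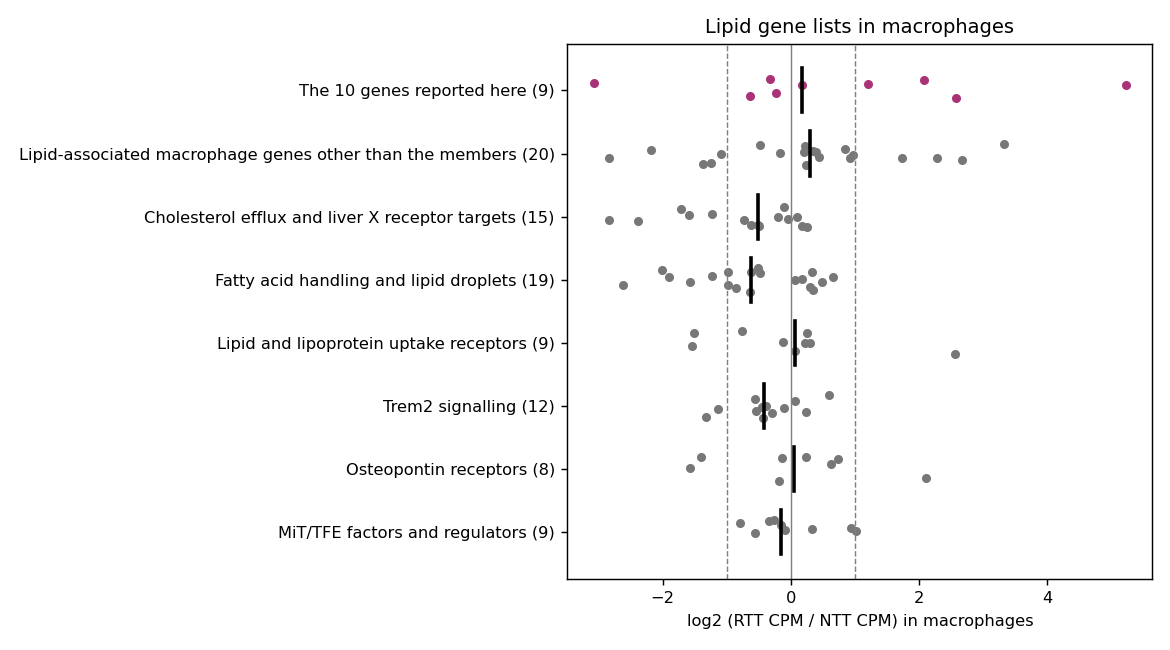
Log2 ratio of RTT over NTT CPM in macrophages for each gene with at least 50 UMIs (points), by list, with the list's median (black bar), the number of genes in brackets and dashed lines at a 2-fold difference. The medians of the cholesterol efflux (-0.52) and lipid droplet (-0.62) lists lie left of 0, and Spp1 (5.23) lies farthest right.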

How the data were processed

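The authors processed reads with Cell Ranger 6.1.1 against the mm10 reference of 10x Genomics, kept cells with over 1000 genes (7680 of 7815 still had as many among the deposited genes) and left out ribosomal and mitochondrial genes and genes missing from any of several experiments. The deposited matrix holds raw UMI counts per gene and cell, and the deposited cell table gives the library and population name of 7815 cells. Its total counts equalled the matrix sums for all 7815 cells. No doublet caller was run here, so doublets remain among the cells to an unknown extent.

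UMIs were summed per gene over the cells of a library, class or population and scaled to CPM. Levels carry exact Poisson, shares exact Clopper-Pearson and log2 ratios exact binomial 95% intervals. Populations needed at least 50 cells in a library to be ranked. A ratio against 0 UMIs uses a floor of 3 UMIs over the library. Cells were thinned to 2000 UMIs for shares of cells. A 3′ UMI count does not scale with transcript length, but capture differs between genes, so each gene was compared across cells. Gene sets, members and motifs were chosen with earlier results of these data known.

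Named genes were the 10 members, up to 2 genes per list and direction past 2-fold in macrophages with at least 200 UMIs, and the genes nearest in profile on log2(CPM + 10). For the list of uptake receptors, 1 gene that the rule named is not reported here. Tyrobp and Mitf were named after their values were seen. Python 3.11.15, numpy 2.4.6, scipy 1.17.1 and pandas 2.3.3 were used, and ratios, intervals and thinning were tested on simulated data. Alternatives covered scaling (edgeR, DESeq2), per-cell means, depth, deepest and top cells, the minimum of UMIs and class definitions. The positions of genes came from GENCODE M21. Columns of other samples left unused numbered 0.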

Additional observations from a re-analysis of the deposited data

How the results depend on the processing

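No paired analysis was possible because each group has 1 library. Of 68 alternative counts of members past 2-fold, 54 stayed within 1.5 times the value reported. Apoe, Spp1 and Trem2 kept a positive ratio under every alternative in every class. Counts of higher members moved beyond 1.5 times only in dendritic cells, from 4 to 2 with per-cell means, with thinning and without cells carrying C1q. Counts of lower members rested on scarce genes. Over all cells they went from 2 to 1 with thinning or with cells of at least 1500 genes and to 0 without the top cell of each gene. In macrophages they went from 1 to 0 with thinning or without the top cell, and to 2 with the NK_cells level subtracted, an alternative added after seeing the data. In monocytes they went from 2 to 1 with thinning, without the 5% deepest cells, without the top cell or with the NK_cells level subtracted, and in dendritic cells from 3 to 1 with thinning. Cd36 turned direction to 0.59 over all cells with thinning, and in macrophages to 0.44 without the top cell and to 1.08 with classes redefined by C1q. Below 2-fold, the sign of Abca1 in macrophages and of Lgals3 in monocytes turned with per-cell means and with thinning. Other signs below 2-fold also turned under some alternatives. These were Gpnmb in macrophages (down to -1.32), Lpl in monocytes (down to -0.71), and Plin2 over all cells (up to 0.01), in monocytes (down to -0.04) and in dendritic cells (up to 0.02). In monocytes redefined by C1q, Cd36 turned to -4.07 and Gpnmb to 1.12. The share of macrophages with at least 5 members was 5.50% in NTT and 18.1% in RTT at 1000 UMIs, 60.5% and 87.6% without thinning, 13.8% and 45.5% with macrophages redefined by C1q, and 0.347% and 2.69% for at least 7 members. Beyond the scarce genes and the construction of each alternative, the cause was not tested. Raising the minimum to 200 UMIs lowered the macrophage background from 6.2% to 4.61% for higher genes. The removal of Myofibrobl cells was also added after seeing the data.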

Other observations

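The 29 RTT cells named Neutro carried 15201 CPM of Apoe, 5244 CPM of Spp1 and 821 CPM of Trem2, against 1258, 876 and 28.7 CPM in the 91 NTT cells of that name. Their 4 neutrophil markers summed to 73743 CPM in NTT and 15892 CPM in RTT, and their 8 macrophage markers to 5031 CPM in NTT and 27510 CPM in RTT (27509.9). In the RTT library the cells of that name thus held more macrophage than neutrophil marker RNA. Whether they included doublets or cells of another type was not tested, so their Apoe, Spp1 and Trem2 levels are not read as those of neutrophils.

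Spp1 stood in another ratio to Apoe in NK_cells than in macrophages of the same library. There were 51.6 Spp1 UMIs per 100 Apoe UMIs in NTT NK_cells and 1.41 in NTT macrophages, and 36.5 in RTT NK_cells and 23.0 in RTT macrophages. Trem2 UMIs per 100 Apoe UMIs were 2.69 in NK_cells (5 Trem2 UMIs) and 2.39 in macrophages of NTT, and 10.6 and 6.24 in RTT. Myofibrobl cells, the main Spp1 source in NTT, held 3688 Spp1 UMIs beside 101 Apoe UMIs. What gave the Spp1 molecules in NTT NK_cells was not tested.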
